A study of Mus musculus with 12 samples.

Results

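Transcription factors of 6 families that set epithelial, stromal and vascular identity (Sox, forkhead or Fox, Gata, Krüppel-like or Klf, Ets and Grainyhead-like or Grhl) were followed in mouse prostate with and without a gene that the study deleted. Members were taken by gene symbol. They comprised every numbered Sox, Foxa to Foxs, Gata1 to Gata6, Klf, Elf1 to Elf5 and Grhl gene, with the Ets genes Ehf and Spdef. This gave 95 of the 23284 genes of the deposited table: 43 Fox, 19 Sox, 17 Klf, 7 Ets, 6 Gata and 3 Grhl genes. The rule used names and no measured value, but it was set with earlier results of these data known.

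Whole prostate of 4-month-old mice on a hybrid 129/SvImJ and C57Bl/6J background was profiled by RNA sequencing after poly-A selection. Of the 12 libraries, 6 were labelled wild type (+/+) and 6 carried the null allele on both chromosomes (-/-). The latter are called null. The labels give no other allele or treatment, and they do not tie each library to an animal of its own. The p-values therefore rest on variation among libraries, part of which may be technical. In bulk tissue, fewer cells of a type and less RNA per cell cannot be told apart.

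These factors bind short DNA motifs and act in combination. In prostate epithelium Foxa1 opens chromatin for other factors, Gata2 and Gata3 act in the luminal lineage, and Sox9 is needed for the outgrowth of prostatic buds. Grhl2 and several Klf and Ets factors maintain epithelial junctions and secretory differentiation, while SoxF factors such as Sox7 and forkhead factors such as Foxf2 are best known from vessels and mesenchyme.

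Values were on a log2 scale as deposited, so a difference of 1 is a doubling. Undetected genes did not stand at 0: over 1101 olfactory receptor genes the median was 2.85 and the 95th percentile 3.5. Genes were tested when at least 6 libraries reached a value of 4. Of the 95 members 62 passed and 33 did not. No read totals accompany the values, so the depth is unknown. Sets of 3 libraries stood apart within each genotype: wild-type 1 to 3 against 4 to 6, and null 1, 2 and 5 against 3, 4 and 6. Over 3633 well-expressed genes, null library 5 lay 0.0296 (median absolute log2 difference) from an equal mix of null 1 and 2, and null library 6 lay 0.0293 from a mix of 3 and 4, while the least distance between any null libraries was 0.0535. A second test was therefore run on the means of these 4 sets, and its adjusted p is given beside called genes. Where a set is left out below, that genotype keeps a single set. The adjusted p of such a fit does not cover the spread between sets of that genotype. Prostate markers were high in wild-type libraries, and all 4 on that list were lower in null libraries, Tgm4 not over set means (adjusted p = 0.285). Mean values in wild-type and null libraries were 19.57 and 19.17 for Tgm4 and 17.99 and 15.83 for Pbsn. They were 15.26 and 9.64 for Msmb and 19.12 and 4.07 for Sbp. The summed log2 level of the prostate list ran from 20.5 to 20.7 in wild-type and from 19.1 to 19.6 in null libraries. Seminal vesicle secretory transcripts were also present. All 7 on that list were higher in null libraries, Svs2 and Svs5 not over set means (adjusted p = 0.358 and 0.122). Svs3a, Svs3b, Svs6 and Sva reached 4 in no wild-type library and passed the filter through null libraries alone. These genes had to come out higher, so their calls add no support. The summed log2 level of the list ran from 6.49 to 11.6 in wild-type and from 16.7 to 20.3 in null libraries.

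Promoter sequence was available for 66 of the 95 members (RefSeq, GRCm38.p6). The 250 bases before the start of 5 members are shown because their genes carry the results below. Foxf2 and Foxc1 are chromosomal neighbours that moved in opposite directions, Klf12 fell most, Spdef is the Ets gene that fell, and Foxa1 is the pioneer factor of the luminal lineage. Each runs 5′ to 3′ on the strand of its gene, with matches to 7 short motifs in capitals.
Foxf2, chr13:31625566-31625815, plus strand: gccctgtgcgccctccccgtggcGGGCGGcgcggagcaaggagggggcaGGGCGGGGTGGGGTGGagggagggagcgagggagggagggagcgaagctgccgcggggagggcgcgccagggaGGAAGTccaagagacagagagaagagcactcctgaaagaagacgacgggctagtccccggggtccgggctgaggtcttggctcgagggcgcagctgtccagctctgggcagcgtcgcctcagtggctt
Foxc1, chr13:31806396-31806645, plus strand: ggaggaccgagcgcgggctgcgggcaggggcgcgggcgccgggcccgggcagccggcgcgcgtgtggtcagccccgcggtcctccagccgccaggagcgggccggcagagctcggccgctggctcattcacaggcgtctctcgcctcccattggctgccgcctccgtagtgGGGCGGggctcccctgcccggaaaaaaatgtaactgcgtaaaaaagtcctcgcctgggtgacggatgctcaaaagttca
Klf12, chr14:100149797-100150046, minus strand: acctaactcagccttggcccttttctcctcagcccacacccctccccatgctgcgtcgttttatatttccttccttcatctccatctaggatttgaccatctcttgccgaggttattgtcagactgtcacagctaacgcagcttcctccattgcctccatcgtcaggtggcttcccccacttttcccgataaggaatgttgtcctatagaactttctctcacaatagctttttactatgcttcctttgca
Spdef, chr17:27728952-27729201, minus strand: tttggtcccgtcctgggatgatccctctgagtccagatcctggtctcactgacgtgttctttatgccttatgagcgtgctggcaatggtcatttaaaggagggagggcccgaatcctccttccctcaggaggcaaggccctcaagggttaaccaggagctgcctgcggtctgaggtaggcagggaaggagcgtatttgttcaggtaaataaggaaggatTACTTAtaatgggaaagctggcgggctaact
Foxa1, chr12:57546112-57546361, minus strand: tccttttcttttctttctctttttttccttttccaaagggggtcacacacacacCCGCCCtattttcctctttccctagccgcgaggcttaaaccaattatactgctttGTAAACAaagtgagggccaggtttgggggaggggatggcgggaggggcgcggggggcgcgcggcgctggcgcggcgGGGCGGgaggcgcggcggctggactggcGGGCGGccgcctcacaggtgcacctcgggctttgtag

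The motifs, searched on both strands, were a homeodomain motif TAAGTA, the forkhead motif TGTTTAC, the Sox motif AACAAT, the Gata motif AGATAA, the Ets motif GGAAGT, the Klf motif CCACCC and the Sp GC box GGGCGG. None contains another, but neighbouring matches can share bases, and in Foxf2 the later GC box and the first Klf motif do. The window of Foxf2 held GC boxes, Klf motifs and an Ets motif, and that of Foxc1 held a GC box. That of Spdef held the homeodomain motif, that of Foxa1 held a forkhead motif and GC boxes, and in that of Klf12 these letters do not occur. Among 32851 promoter windows of that length, 6.62% held TAAGTA, against 5 of the 66 member genes (7.58%), and 3.17% held TGTTTAC (4.55% of member genes). GGGCGG was found in 32.7% of all windows and in 72.7% of member genes, and CCACCC in 28.1% and 48.5%. The median GC content was 52.4% over all windows and 62% over those of members, and a gene with several starts had several windows. The homeodomain motif occurred in 1 of 17 matched members that rose and in 1 of 8 that fell. A match is a description of the sequence and no evidence of binding.

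Of the 62 tested members, 25 were higher and 10 lower in null prostate and 27 were not called (limma, Benjamini-Hochberg adjusted p under 0.05 over all 15096 genes tested). That is 56.5% of the tested members, beside 53.1% of all genes tested, so the share called was close to the background. Among all genes 28% were called higher and 25.1% lower, and the median difference was 0.0849 over members and 0.0118 over all genes. Over set means 12 members rose and 5 fell, 27.4% of members beside 14.5% of all genes. At least 2-fold differences were called for 10 members, 6 higher and 4 lower, where 7.01% of all genes showed one. The genotypes did not overlap in 25 members, beside 32.6% of all genes tested. A gene that passed the filter through one genotype alone had to differ, and Foxf2 was such a gene, reaching 4 in the 6 wild-type libraries and in no null library.

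**Figure D1:**
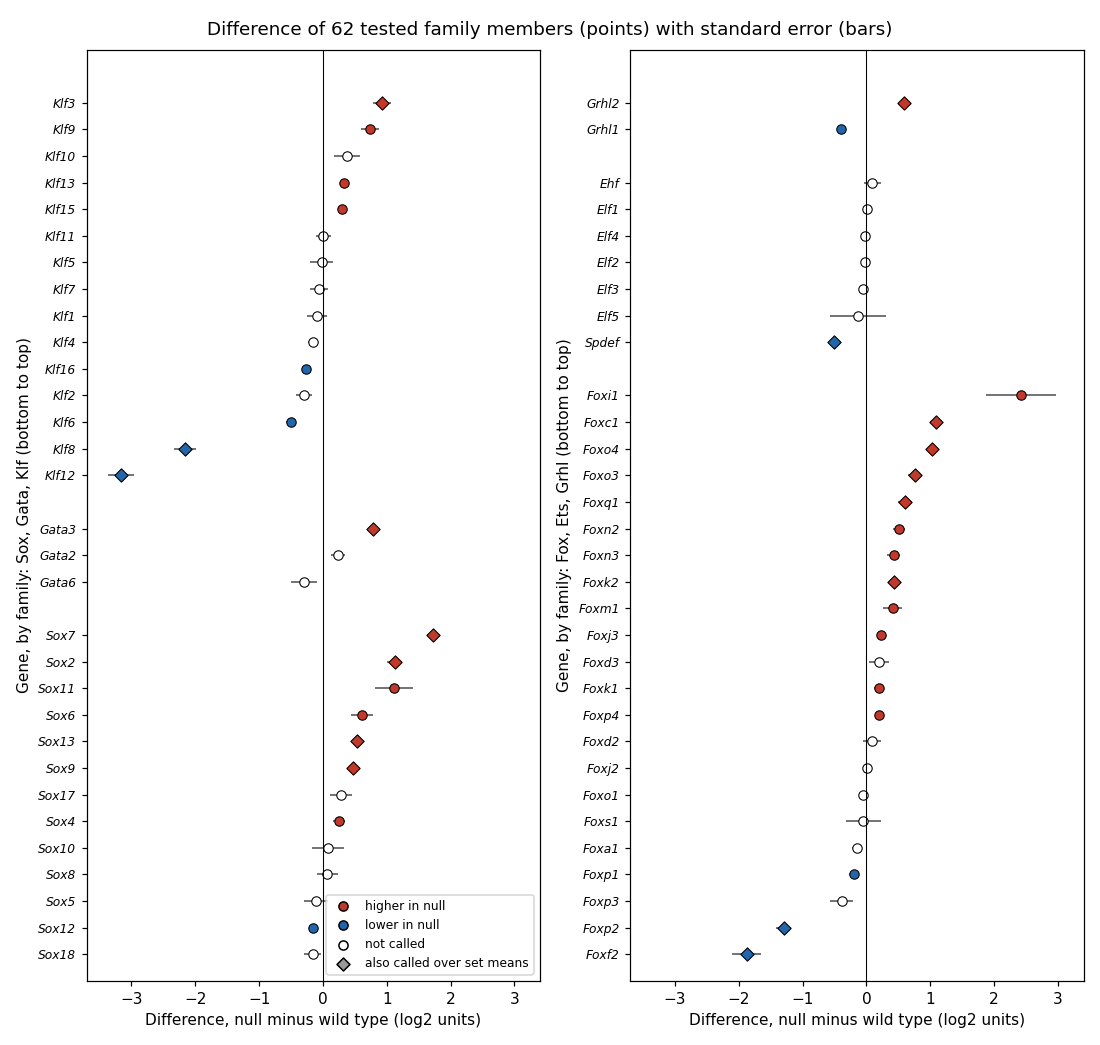
Difference between null and wild-type libraries in log2 units (x axis) for each of 62 tested members (y axis, by family), with the standard error as a bar. Red points were called higher and blue points lower, white points were not called, and diamonds were called over set means too. Klf12, Klf8, Foxf2 and Foxp2 lie at least 1 unit to the left, and Foxi1, Sox7, Sox2, Sox11, Foxc1 and Foxo4 at least 1 unit to the right.

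**Figure D2:**
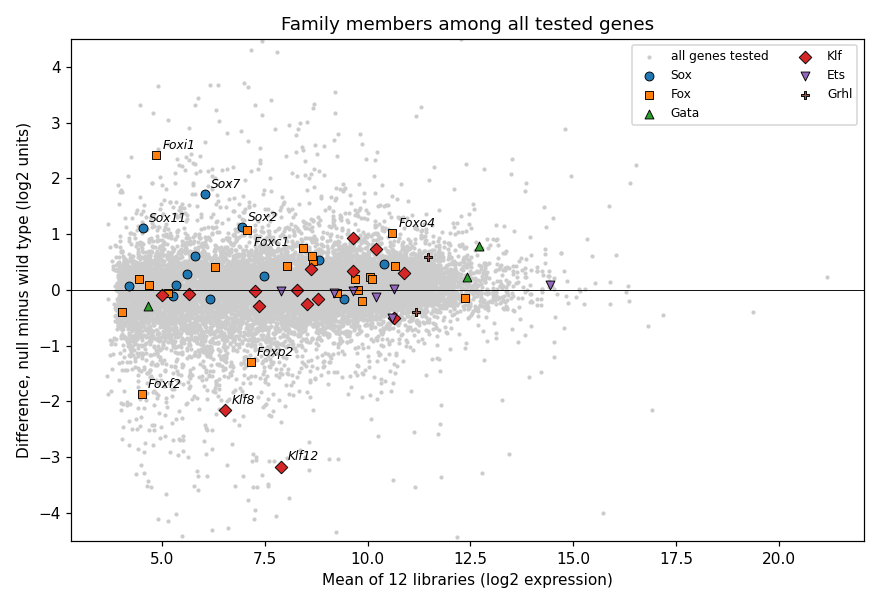
Mean of the 12 libraries (x axis, log2 expression) against the difference between null and wild type (y axis, log2 units) for all tested genes in grey and for family members by symbol. Members with a difference of at least 1 are named, and 39 genes outside ±4.5 are not drawn. Most members lie within the grey cloud, and Klf12 and Klf8 lie below most genes of their mean.

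The Klf family showed the largest falls. Klf genes encode zinc finger proteins that bind CACCC and GC-rich elements. Of 17 members 15 were tested, 4 rose, 4 fell and 7 were not called, and the test on set means called 1 higher and 2 lower. The share called, 53.3%, was close to the 53.1% of all genes tested (14.5% over set means). Klf12, a repressor first described at the promoter of Tfap2a, had a lowest, median and highest value of 9.32, 9.48 and 9.73 in wild-type and of 5.62, 6.54 and 6.95 in null libraries. Every null library was far below the lowest wild-type library. Klf12 fell by 3.17 (SE 0.202, adjusted p = 3.59e-08), about 8.99-fold, and also over set means (adjusted p = 0.00345). Tfap2a, whose product AP-2 alpha regulates epithelial genes, was lower as well, by 0.28 (values 9.67 to 9.88 in wild-type and 9.39 to 9.52 in null libraries, adjusted p = 0.000109, and 0.0966 over set means).

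Klf8, another repressor of the family, stood at 7.25, 7.60 and 8.04 in wild-type libraries. In null libraries it stood at 5.06, 5.44 and 5.87. It fell by 2.16 (SE 0.168, adjusted p = 1.03e-07, and 0.00645 over set means), a 4.47-fold difference. All null libraries were below all wild-type libraries. Klf12 and Klf8 are close relatives of Klf3 within the family, and all of these proteins bind the corepressor CtBP.

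Klf3, the third of this group, was higher instead. Its values were 8.89, 9.19 and 9.45 in wild-type libraries and 9.63, 10.13 and 10.41 in null libraries. It rose by 0.92 (SE 0.142, adjusted p = 0.000116, and 0.0458 over set means). The difference Klf3 showed was 1.90-fold, and its genotypes did not overlap. Counts could be shared between such paralogs where their sequence is alike, and the way reads were assigned was not stated.

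Klf9, Klf13 and Klf15 were higher by smaller amounts. Klf9, a target of glucocorticoid and thyroid hormone receptors, stood at 9.68 to 9.94 in wild-type and at 10.20 to 11.15 in null libraries. Klf9 rose by 0.73 (adjusted p = 0.00078, and 0.0707 over set means). Its relative Klf13 rose by 0.33 (adjusted p = 1.31e-05, and 0.0599 over set means), and Klf15, a regulator of amino acid and glucose metabolism, rose by 0.30 (adjusted p = 0.000571, and 0.138 over set means). None of these shifts passed over set means, although the genotypes did not overlap in any of them.

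Klf6, a candidate tumour suppressor of prostate, stood at 10.60, 10.90 and 11.16 in wild-type and at 10.29, 10.40 and 10.49 in null libraries. It fell by 0.50 (SE 0.0818, adjusted p = 0.000142, and 0.0658 over set means). Wild-type libraries 4 to 6 were higher than 1 to 3 by 0.36 in set means, so part of the span of Klf6 lay within the wild-type group. Klf16 fell by 0.26 (adjusted p = 0.000815, and 0.142 over set means).

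The epithelial factors Klf4 and Klf5 were not called. Klf4, which favours terminal differentiation, stood at 8.80, 8.88 and 8.93 in wild-type and at 8.48, 8.71 and 8.91 in null libraries. The difference of -0.16 had an adjusted p of 0.0504, and without wild-type replicate 4, null replicate 2 or null replicate 5 it was 0.0489, 0.0136 and 0.0381. Klf4 was also called lower after quantile normalization (adjusted p = 0.0359), after upper quartile scaling (adjusted p = 0.032) and with the filter at 5 (adjusted p = 0.0474). Without null libraries 1, 2 and 5 the difference of Klf4 was -0.28 (adjusted p = 0.00175), and over set means its adjusted p was 0.389. Klf5, which is active in proliferating basal epithelium, stood at 6.85 to 7.66 and at 6.96 to 7.87 (difference -0.018, adjusted p = 0.943). The wild-type sets differed by 0.69 in Klf5, more than the genotypes did.

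The endothelial factor Klf2 stood at 7.17 to 7.77 in wild-type and at 6.91 to 7.42 in null libraries (difference -0.29, adjusted p = 0.0614). It passed without wild-type replicate 5 (adjusted p = 0.0243) or 6 (adjusted p = 0.0496) and without null replicate 1 (adjusted p = 0.0442) or 2 (adjusted p = 0.0457). It also passed after upper quartile scaling (adjusted p = 0.04997), with wild-type libraries 4 to 6 left out (-0.44, adjusted p = 0.0227) and with null libraries 1, 2 and 5 left out (-0.48, adjusted p = 0.00915). Klf1, the erythroid factor, stood at 4.96 to 5.18 and at 4.30 to 5.30. Klf7 and Klf11 had differences of -0.068 and 0.0030.

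Among the 43 Fox genes 22 were tested, of which 12 rose, 3 fell and 7 were not called. That is 68.2% called, beside 53.1% of all genes tested (28% higher, 25.1% lower, and 14.5% called over set means). Over set means 5 rose and 2 fell. Forkhead proteins bind DNA through a winged helix and include pioneer factors, targets of insulin signalling and regulators of mesenchyme.

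Foxa1, a pioneer factor that binds closed chromatin, was not called. Its lowest, median and highest values were 12.26, 12.45 and 12.62 in wild-type libraries and 12.15, 12.32 and 12.40 in null libraries. The ranges overlapped, and the wild-type sets differed by 0.31. The difference was -0.15 (SE 0.075, adjusted p = 0.117, and 0.525 over set means), and it depended on scaling: it was -0.27 (adjusted p = 0.00155) after quantile normalization and -0.18 (adjusted p = 0.0479) after upper quartile scaling. Without wild-type libraries 1 to 3 it was -0.30 (adjusted p = 0.0022). The other Foxa genes, Foxa2 and Foxa3, were below the filter.

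Members regulated by insulin and Akt signalling, the Foxo genes, moved unequally. Foxo4 stood at 9.99, 10.09 and 10.14 in wild-type and at 10.82, 11.12 and 11.38 in null libraries. It rose by 1.02 (SE 0.0778, adjusted p = 8.16e-08, and 0.00775 over set means). Every null library was above every wild-type library.

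Foxo3 stood at 7.92, 8.06 and 8.14 in wild-type and at 8.50, 8.83 and 9.06 in null libraries. It rose by 0.75 (SE 0.0965, adjusted p = 1.45e-05, and 0.0365 over set means). Foxo1 stood at 9.10 to 9.43 and at 9.10 to 9.41, with a difference of -0.049 (adjusted p = 0.552). The difference between these paralogs was not tested. Foxo6 was the closest member outside the filter, with 5 libraries at 4 or more.

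The forkhead genes Foxq1, Foxf2 and Foxc1, which follow each other on mouse chromosome 13, with only non-coding genes between them in the RefSeq annotation (GRCm38.p6), moved in opposite directions. Foxq1, known from epithelia and hair, stood at 8.24, 8.28 and 8.57 in wild-type and at 8.72, 8.83 and 9.40 in null libraries, and rose by 0.61 (SE 0.11, adjusted p = 0.000313, and 0.046 over set means). The ranges of Foxq1 did not overlap.

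Foxf2, the middle gene, is a factor of gut and genital mesenchyme. Its values in wild-type libraries were 4.84, 5.52 and 5.90, and in null libraries 2.70, 3.75 and 3.92. It fell by 1.87 (SE 0.226, adjusted p = 8.25e-06, and 0.0111 over set means). Foxf2 passed the filter through wild-type libraries alone, so it had to come out lower and these p-values add no support. The mean in null libraries, 3.57, was next to the 3.5 below which most olfactory receptor genes lay, so the fall can be understated.

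Foxc1, the far neighbour and a regulator of mesenchyme and of epidermal appendages, stood at 6.38, 6.53 and 6.68 in wild-type and at 7.43, 7.65 and 7.75 in null libraries. It rose by 1.08 (SE 0.0857, adjusted p = 1.21e-07, and 0.0105 over set means). Its paralog Foxc2 was below the filter. Of 5 fibroblast markers 4 were not called and Dcn fell by 0.32 (adjusted p = 0.00689, and 0.216 over set means), and the summed level of the list ran from 13.5 to 13.7 in wild-type and from 13.1 to 13.6 in null libraries. The part of stromal content in Foxf2 and Foxc1 was not tested.

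Foxp2, a repressor of the Foxp group, stood at 7.72, 7.77 and 7.90 in wild-type and at 6.12, 6.62 and 6.76 in null libraries. It fell by 1.29 (SE 0.118, adjusted p = 4.94e-07, and 0.00653 over set means). No null library reached the lowest wild-type value. Foxp4 rose by 0.19 (adjusted p = 0.00291, and 0.186 over set means) and Foxp1 was lower by 0.20 with an adjusted p of 0.046 that did not last when a library was left out. It became 0.0602, 0.105, 0.0832 and 0.101 without wild-type replicates 2, 4, 5 and 6, and 0.0819, 0.0931 and 0.0971 without null replicates 1, 2 and 5. Foxp3, the factor of regulatory T cells, stood at 3.84 to 4.57 and at 3.36 to 4.20 (difference -0.39, adjusted p = 0.0791). It passed without wild-type replicate 5 (adjusted p = 0.0454) or null replicate 2 (adjusted p = 0.0455), and 7 of 8 lymphocyte markers were lower in null libraries.

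The more widely expressed Foxk, Foxn and Foxj genes were mostly higher by small amounts. Foxk2, a repressor that responds to insulin signalling, stood at 10.39 to 10.49 in wild-type and at 10.77 to 11.07 in null libraries, and rose by 0.42 (adjusted p = 1.13e-05, and 0.0416 over set means). Foxn2 rose by 0.51 (adjusted p = 0.000191, and 0.0653 over set means), Foxn3 by 0.43 (adjusted p = 0.00239, and 0.137 over set means) and Foxj3 by 0.22 (adjusted p = 0.00705, and 0.244 over set means). Without wild-type libraries 4 to 6 the difference of Foxn3 was 0.25 (adjusted p = 0.0594). That of Foxj3 with wild-type libraries 1 to 3 left out was 0.10 (adjusted p = 0.138). Foxj2 had a difference of 0.0039.

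Foxk1 was called higher by 0.19 (adjusted p = 0.0283, and 0.32 over set means). This call was lost without wild-type replicates 1, 2 or 3 (adjusted p = 0.0556, 0.0674 and 0.057) and without null replicates 3, 4 or 6 (adjusted p = 0.0655, 0.0588 and 0.0614). Foxm1, which drives mitotic genes, stood at 5.93 to 6.30 in wild-type and at 6.02 to 6.89 in null libraries. The difference of Foxm1 was 0.41 (adjusted p = 0.029, and 0.301 over set means), and the call was lost without wild-type replicates 1 or 5 (adjusted p = 0.0601 and 0.0552) and without null replicates 3, 4 or 6 (adjusted p = 0.0558, 0.0665 and 0.0696).

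Of 19 Sox genes 13 were tested, with 7 higher, 1 lower and 5 not called, and 4 rose over set means. That is 61.5% called, beside 53.1% of all genes tested (28% higher, 25.1% lower, and 14.5% called over set means). Sox proteins bend DNA through a high mobility group box and are grouped by its sequence. The member of the SoxE group that marks prostatic buds, Sox9, stood at 10.10, 10.16 and 10.22 in wild-type and at 10.49, 10.63 and 10.75 in null libraries. It was higher in all 6 null libraries than in any wild-type library, by 0.46 (SE 0.0466, adjusted p = 1.31e-06, and 0.0252 over set means). Sox10, the SoxE factor of glia, stood at 5.12 to 5.40 and at 4.63 to 6.45, with the highest value in null library 1, and was not called (adjusted p = 0.802). Sox8 stood at 3.93 to 4.78 and at 3.94 to 4.49.

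Sox7, of the SoxF group, showed the smallest adjusted p of all members. It stood at 5.12, 5.16 and 5.22 in wild-type libraries and at 6.63, 6.92 and 7.08 in null libraries. The rise was 1.72 (SE 0.095, adjusted p = 3.2e-09, and 0.00581 over set means), a 3.30-fold difference. Sox7 is best known from endothelium, where it acts with Sox17 and Sox18.

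Those partners were not called. Sox17 stood at 5.02 to 5.72 in wild-type and at 5.11 to 6.31 in null libraries (difference 0.28, adjusted p = 0.204, and 0.41 with adjusted p = 0.0414 without null replicate 4). The difference of Sox17 was 0.39 (adjusted p = 0.0458) after quantile normalization and 0.59 (adjusted p = 0.0116) with null libraries 3, 4 and 6 left out. With null libraries 1, 2 and 5 left out it was -0.024. Sox18 stood at 6.00 to 6.58 and at 5.61 to 6.34 (difference -0.16, adjusted p = 0.322). Of 8 endothelial markers Flt1 rose by 0.62 (adjusted p = 0.000559, and 0.0956 over set means), Emcn fell by 2.07 (adjusted p = 3.2e-09, and 0.00406 over set means) and 6 were not called. The summed level of the list ran from 10.6 to 11.1 in both genotypes. The part of endothelial content in Sox7 was not tested.

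Sox2, a SoxB1 factor of stem cells and foregut epithelium, stood at 6.17, 6.41 and 6.58 in wild-type and at 7.31, 7.44 and 7.96 in null libraries. It rose by 1.13 (SE 0.117, adjusted p = 1.95e-06, and 0.015 over set means). Null library 3 was the highest. Sox21 and the other SoxB members were below the filter.

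**Figure D3:**
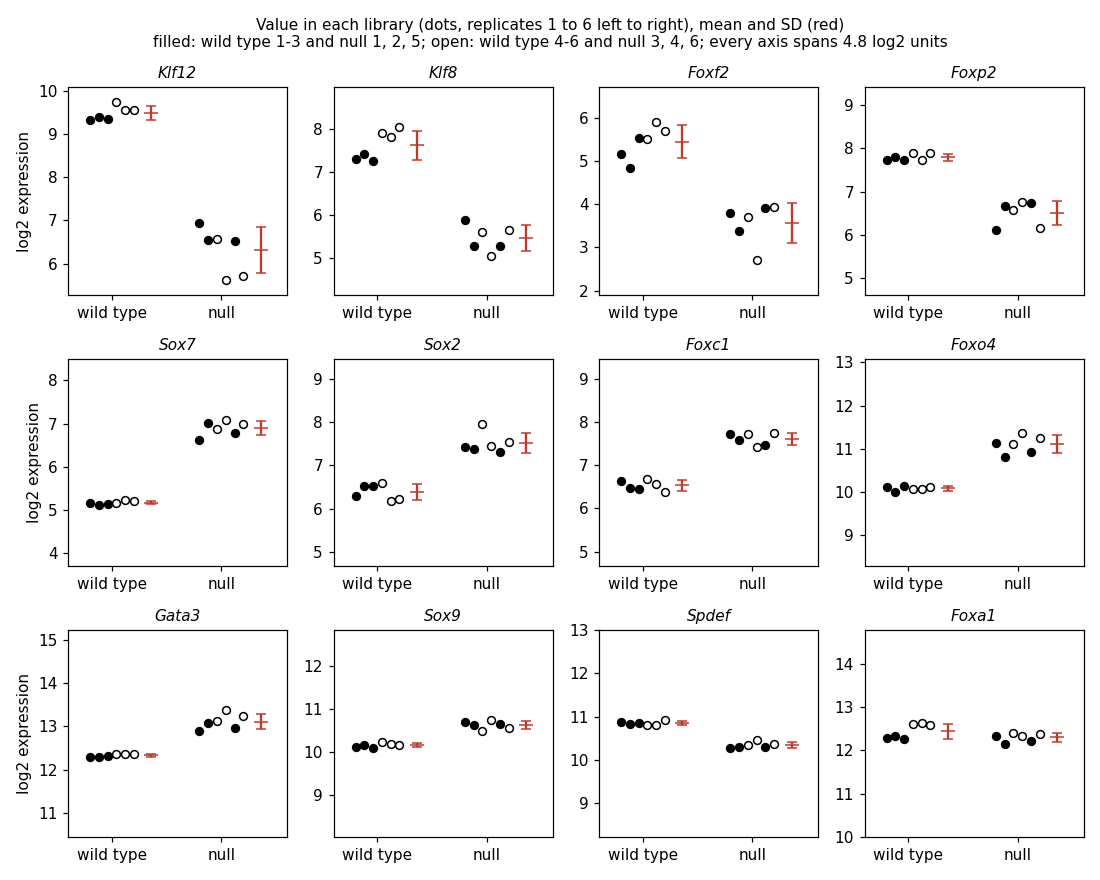
Expression (y axis, log2) of 12 members in each of 12 libraries, with wild-type libraries on the left and null libraries on the right of each panel. Red bars give the mean and SD, and filled and open dots mark the sets of libraries within a genotype. The genotypes do not overlap in any panel but that of Foxa1.

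Of the SoxD genes, Sox13 and Sox6 were called higher. Sox13 stood at 8.38 to 8.78 in wild-type and at 9.03 to 9.18 in null libraries, and rose by 0.54 (SE 0.0704, adjusted p = 1.79e-05, and 0.0237 over set means). Sox6 rose by 0.61 (adjusted p = 0.00836, and 0.0949 over set means), with ranges of 4.87 to 6.06 and 5.92 to 6.43 that overlapped, and Sox5 stood at 4.93 to 5.87 and 4.91 to 5.49 and was not called (adjusted p = 0.653). The difference of Sox6 was 0.47 when wild-type libraries 4 to 6 were left out (adjusted p = 0.0543).

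Of the SoxC genes, Sox12 was called lower by 0.16 (adjusted p = 0.0191, and 0.275 over set means). Sox4, a factor of progenitor survival, was called higher by 0.25 (adjusted p = 0.029, and 0.329 over set means). The call of Sox4 was lost without wild-type replicates 4, 5 or 6 (adjusted p = 0.0616, 0.0642 and 0.0649) and without null replicates 2, 3 or 4 (adjusted p = 0.0502, 0.0581 and 0.0664). The difference of Sox12 without wild-type libraries 4 to 6 was -0.12 (adjusted p = 0.182), without null libraries 1, 2 and 5 it was -0.13 (adjusted p = 0.0701), and without null libraries 5 and 6 its adjusted p was 0.0676.

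Among 6 Gata genes 3 were tested. Gata3, a zinc finger factor of luminal epithelium and T cells, stood at 12.29, 12.33 and 12.37 in wild-type and at 12.89, 13.10 and 13.37 in null libraries. It rose by 0.78 (SE 0.0698, adjusted p = 4.23e-07, and 0.0193 over set means). The wild-type libraries of Gata3 lay close together, and no null library came near them. Most lymphocyte markers moved the other way, with 7 of 8 lower. Urothelium also expresses Gata3, and of its 5 markers Upk1b and Upk2 rose by 1.44 and 2.81 (adjusted p = 0.0421 and 0.00837 over set means). Upk1a had a mean of 11.41 in wild-type and 11.57 in null libraries and was not called (adjusted p = 0.0722). The summed urothelial level ran from 12.5 to 12.8 in wild-type and from 13.2 to 14.4 in null libraries, with Krt20 and Upk3a below the filter, and its part in the rise of Gata3 was not tested.

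Gata2, a factor of luminal and blood cells, stood at 12.08, 12.31 and 12.49 in wild-type and at 12.34, 12.42 and 12.92 in null libraries. The difference of 0.23 was not called (adjusted p = 0.0911). Without null libraries 1, 2 and 5 it was 0.37 (adjusted p = 0.0386). Leaving out wild-type libraries 4 to 6 gave 0.40 (adjusted p = 0.0165). Gata6, known from endoderm and smooth muscle, stood at 4.48 to 5.09 and at 3.96 to 5.40, a difference of -0.30 (adjusted p = 0.253) that was -0.47 (adjusted p = 0.0248) without null replicate 1 and -0.60 (adjusted p = 0.0175) without null libraries 1, 2 and 5. Gata1, the erythroid member, was below the filter.

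The 2 tested Grhl genes, regulators of epithelial junctions, moved in opposite directions. Grhl2 stood at 11.12, 11.17 and 11.19 in wild-type and at 11.62, 11.76 and 11.88 in null libraries, and rose by 0.59 (SE 0.0534, adjusted p = 4.6e-07, and 0.0262 over set means). Grhl1, an activator of desmosomal genes, stood at 11.31, 11.40 and 11.44 and at 10.78, 11.04 and 11.11. It fell by 0.40 (SE 0.0608, adjusted p = 7.11e-05, and 0.0752 over set means). Neither gene's genotypes overlapped, and Grhl3 was below the filter.

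All 7 Ets members were tested, and 6 were not called (14.3% called, beside 53.1% of all genes tested). The exception was Spdef, an Ets factor of prostate and goblet secretory cells, which stood at 10.79, 10.84 and 10.93 in wild-type and at 10.28, 10.33 and 10.45 in null libraries. Spdef fell by 0.50 (SE 0.0411, adjusted p = 1.64e-07, and 0.0222 over set means). Ehf, an epithelial differentiation factor, stood at 14.14, 14.40 and 14.62 and at 14.16, 14.52 and 14.74 (difference 0.090, adjusted p = 0.59). Without null libraries 1, 2 and 5 the difference of Ehf was 0.34 (adjusted p = 0.0263). Elf1, Elf2, Elf3 and Elf4 had differences of 0.012, -0.020, -0.051 and -0.018, each smaller than its standard error. Without wild-type libraries 4 to 6 that of Elf3 was -0.16 (adjusted p = 0.0243).

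Levels were compared between genes per length, assuming that the deposited values carried no length correction already. The transformation was not stated, so this assumption was not tested and the order of genes depends on it. After subtraction of log2 of the longest coding transcript in kilobases (GENCODE M21), Ehf stood highest in wild-type prostate at 12.23 ± 0.223 (SD, n = 6) log2 units per kilobase. Foxa1 followed at 10.77 ± 0.173 (SD, n = 6), Gata3 at 10.64 ± 0.0355 (SD, n = 6) and Gata2 at 10.46 ± 0.193 (SD, n = 6). These neighbours lay within about 1 SD of Foxa1 or Gata2 of each other. Spdef stood at 9.90, Grhl1 at 9.59, Klf15 at 9.43, Elf5 at 8.92, Grhl2 at 8.86 and Klf6 at 8.82, with Elf5, Grhl2 and Klf6 within the SD of Elf5 (0.358). Sox9 was the highest Sox gene at 8.11 and Foxo4 the second Fox gene at 8.42. In null prostate Gata3, at 11.42, stood above Foxa1, at 10.63, Grhl2, at 9.45, above Grhl1, at 9.19, and Klf12 dropped from 6.93 to 3.76.

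Some members differed more within a genotype than between genotypes. Of 62 tested members 12 had null sets at least 0.5 apart (19.4%, beside 10.1% of all genes tested) and 7 had wild-type sets that far apart (11.3%, beside 9.79%). Foxi1, Elf5 and Sox11 had null sets at least 1 apart. Foxi1, which drives proton pump genes in ionocytes and in clear cells of the male tract, stood at 4.04, 4.17 and 3.93 in wild-type libraries 1 to 3 and at 3.36, 3.26 and 3.11 in libraries 4 to 6. Its values were 7.13, 7.49 and 7.39 for null libraries 1, 2 and 5, against 4.90, 4.57 and 4.88 for the other null libraries. Every null library was above every wild-type library, and the sets of either genotype did not overlap. The difference of 2.42 (SE 0.551) was called over 12 libraries (adjusted p = 0.00267), not over set means (adjusted p = 0.158) and not when wild-type libraries 4 to 6 were left out (2.01, adjusted p = 0.0579). It was 1.14 without null libraries 1, 2 and 5 and 3.69 without null libraries 3, 4 and 6.

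Sox11, a SoxC gene of embryonic progenitors, showed the same order of sets. It stood at 3.46 to 4.43 in wild-type libraries, at 5.51, 5.89 and 5.72 in null libraries 1, 2 and 5 and at 4.07, 4.70 and 4.59 in null libraries 3, 4 and 6. The genotypes overlapped. The difference was 1.11 (SE 0.298, adjusted p = 0.00614, and 0.175 over set means). It was 0.48 (adjusted p = 0.109) without null libraries 1, 2 and 5 and 0.80 (adjusted p = 0.11) without wild-type libraries 4 to 6.

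Elf5, an Ets factor of secretory epithelium, was not called over 12 libraries (difference -0.13, adjusted p = 0.825), and its direction depended on the set. It stood at 9.90 to 10.65 in wild-type libraries, at 10.53, 11.52 and 11.09 in null libraries 1, 2 and 5 and at 8.92, 9.51 and 9.23 in null libraries 3, 4 and 6. Without null libraries 1, 2 and 5 Elf5 fell by 1.04 (adjusted p = 0.00367), and without null libraries 3, 4 and 6 it was higher by 0.78 (adjusted p = 0.0359). Each of these fits kept a single null set, so neither value measures the genotype across sets.

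Klf10, a gene induced by TGF-beta, ranged from 8.78 to 8.82 in the first wild-type set and from 8.02 to 8.13 in the second. It ranged from 9.11 to 9.16 in null libraries 1, 2 and 5 and from 8.37 to 8.60 in 3, 4 and 6. Its sets lay further apart than the genotypes, whose difference of 0.37 was not called (adjusted p = 0.132). Without wild-type libraries 1 to 3 the difference of Klf10 was 0.74 (adjusted p = 0.00999), and without null libraries 3, 4 and 6 it was 0.70 (adjusted p = 0.0187). Without wild-type libraries 4 to 6 it was 0.013. Foxs1, a forkhead gene of pericytes, stood at 4.17 to 6.23 in null libraries, with null sets 0.99 apart. Its difference was -0.55 (adjusted p = 0.0456) without null libraries 1, 2 and 5 and 0.44 without null libraries 3, 4 and 6.

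The seminal vesicle transcripts did not share 1 order of null sets. Svs2 had its highest levels in null libraries 1, 2 and 5, at 17.86, 19.36 and 18.86 in null libraries 1, 2 and 5 and at 11.62, 12.56 and 12.13 in 3, 4 and 6, and Svs5 was higher in the former by 1.85. The other 5 genes of the list ran the opposite way in set means, with differences of -1.04 for Svs3a, -1.26 for Svs3b, -0.77 for Svs4, -0.21 for Svs6 and -1.37 for Sva. Null library 1 was the lowest null library in each of these 5. The basal list ran lower in null libraries 1, 2 and 5, with a summed level of 12.2 to 12.3 there and 12.7 in the others. Pax2, a gene of mesonephric duct epithelium, and Atp6v1g3, a proton pump subunit of ionocytes, were read after the values were seen. Pax2 stood at 5.37, 6.44 and 5.75 in null libraries 1, 2 and 5 and at 2.38, 2.47 and 3.21 in the others, and Atp6v1g3 at 6.53, 6.56 and 6.39 and at 4.16, 4.32 and 4.60. The part of attached seminal vesicle or duct tissue in Foxi1, Sox11 and Elf5 was not tested.

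**Figure D4:**
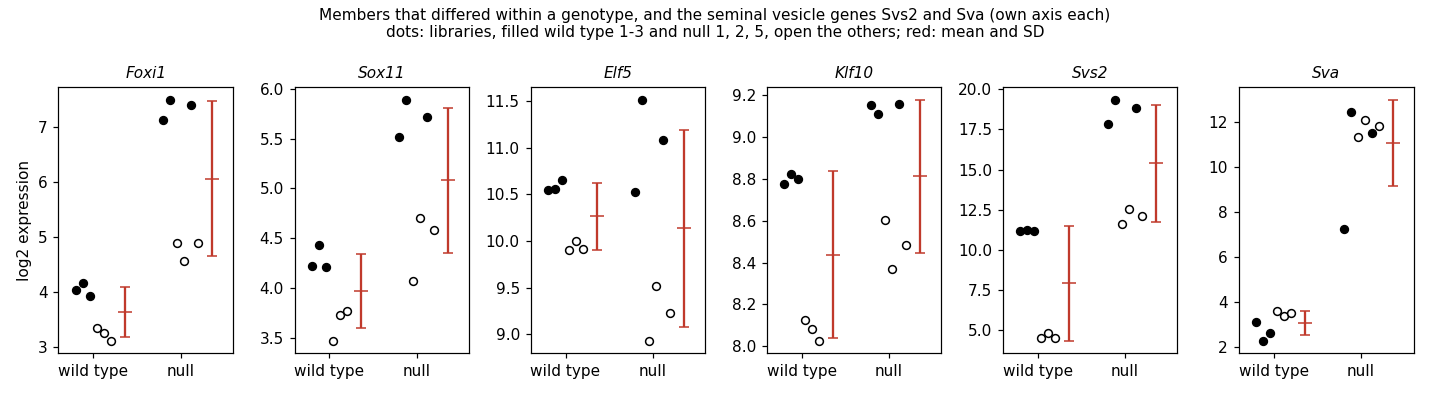
Expression (y axis, log2, a separate scale in each panel) of Foxi1, Sox11, Elf5, Klf10 and the seminal vesicle genes Svs2 and Sva in each library. Filled dots are wild-type libraries 1 to 3 and null libraries 1, 2 and 5, open dots the others, and red bars the mean and SD. In the panels of Foxi1, Sox11, Elf5, Klf10 and Svs2 the filled dots of a genotype lie above its open dots, and in that of Sva they do not.

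The 33 members below the filter included tissue-specific factors such as Foxn1 of thymus, Foxj1 of ciliated cells, Gata4 and Gata5 of heart, and Sox1 and Sox3 of neural tissue. Their means ranged up to 4.00, that of Foxo6. Foxf2 with 6 libraries at 4 or more and Foxp3 with 7 were the members just inside the filter, and Foxo6 with 5 and Foxj1 with 3 those just outside.

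Relatives and partners of the members were counted from 7 lists with 68 genes, of which 62 were tested. Of these 33 were higher, 7 lower and 22 not called (64.5% called, beside 53.1% of all genes tested, of which 28% were higher and 25.1% lower). On set means 10 were called higher and 3 lower, where 14.5% of all genes were called. The Sp family, which shares the zinc fingers of Klf proteins, had 3 higher, 1 lower and 3 not called of 7. Sp5, a repressor induced by Wnt signalling, stood at 8.49, 8.73 and 8.93 in wild-type and at 5.24, 5.74 and 5.88 in null libraries. It fell by 3.07 (SE 0.118, adjusted p = 7.92e-11, and 0.00117 over set means), a change of similar size to that of Klf12, while the ubiquitous Sp1 rose by 0.41 (adjusted p = 3.03e-06), Sp4 by 0.54 and Sp3 by 0.20. Over set means the adjusted p was 0.0435 for Sp1, 0.0956 for Sp4 and 0.191 for Sp3.

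The 3 CP2 genes, relatives of Grhl, were called over 12 libraries and lost their calls over set means. Tfcp2l1, a factor of ducts in kidney and salivary gland, stood at 10.20 to 10.60 in wild-type and at 8.54 to 9.69 in null libraries and fell by 1.34 (adjusted p = 0.000114, and 0.0553 over set means). Tfcp2 rose by 0.35 (adjusted p = 0.000174, and 0.0561 over set means) and Ubp1 by 0.44 (adjusted p = 2.15e-05, and 0.0584 over set means). Of 8 Gata cofactors and relatives 5 rose and 3 were not called (62.5% called, beside 53.1% of all genes tested). Gatad2b rose by 0.78, Trps1 by 0.61, Gatad1 by 0.50 and Zfpm1, which encodes the Gata cofactor FOG1, by 0.54. These 4 also passed over set means (adjusted p = 0.0267, 0.0145, 0.0405 and 0.0333).

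Of 15 other Ets genes tested 7 rose, 2 fell and 6 were not called (60% called, beside 53.1% of all genes tested). The 9 called genes lost their calls over set means, with adjusted p from 0.0534 for Spib to 0.268 for Etv3. Elk4 rose by 0.74 (adjusted p = 0.000188), Erf by 0.27 and Etv6 by 0.25, and Spib, a B cell factor, fell by 1.55 (adjusted p = 0.000298), from 4.86 to 6.35 in wild-type to 3.28 to 4.56 in null libraries. Over set means the adjusted p was 0.0549 for Elk4, 0.142 for Erf and 0.188 for Etv6. The oncogene Erg, known from human prostate cancer, was not called (difference -0.18, adjusted p = 0.458). Of 11 partners of forkhead and nuclear receptors 6 rose and 2 fell (72.7% called). The corepressor gene Tle4 fell by 0.55 (adjusted p = 7.84e-06, and 0.0261 over set means). The posterior homeobox gene Hoxb13 fell by 0.62 (adjusted p = 3.85e-06, and 0.0355 over set means) and Tle1 rose by 0.33 (adjusted p = 3e-05, and 0.0722 over set means).

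Of 10 regulators of stratified epithelium 8 rose, 1 fell and 1 was not called (90% called, beside 53.1% of all genes tested). Trp63 and Id1, an inhibitor of bHLH factors, rose by 1.16 and 1.44, Id2 by 0.56 and Runx1 by 0.82, and all of them passed over set means (adjusted p = 0.00969, 0.0131, 0.0166 and 0.0413). Of 8 mesenchymal regulators Snai2 rose by 0.53 (adjusted p = 0.00364, and 0.108 over set means) and Twist2 by 0.44 (adjusted p = 0.0032, and 0.174 over set means), and 6 were not called. The share called on that list was 25%. Among 8 basal markers 6 were higher and 1 lower, with a summed level of 11.98 to 12.13 in wild-type and 12.2 to 12.7 in null libraries. Trp63 stands on both lists. Over set means the higher Krt14 and Krt15 and the lower Itga6 lost their calls (adjusted p = 0.189, 0.0924 and 0.322). The part of basal cell content in Sox2, Sox9 and Gata3 was not tested.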

How the data were processed

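The authors deposited one table of log2 expression values, from 1.07 to 21.6, per gene and library. Per the submitters' processing notes the tools were CASAVA 1.8.2, TopHat2 2.0.4, Cufflinks 2.0.2 and DESeq with build mm9, with no role stated. The values have the form of variance-stabilised expression, but the transformation used was not stated. It flattens differences of low genes, and without counts no count test was possible.

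Values were tested as deposited with limma 3.58.1 (R 4.3.3), using a trended, robust variance prior, genotype as the term and all 12 libraries. Genes had to reach 4 in 6 or more libraries, p-values were adjusted over all 15096 genes (Benjamini-Hochberg), and the threshold was 0.05. A second fit used 4 set means. The fit was checked on simulated data in which every library was drawn independently. That check had no sets within a genotype, so it cannot show that p-values over 12 libraries hold here. Alternatives were other scalings, filters and tests, a random block per set, and each library or set left out.

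Members and lists were chosen with earlier results of these data known. Named were Foxa1, Sox9, members called with at least 2-fold differences, and in each family the 4 called members of smallest adjusted p (with under 2 called, also the 2 of highest mean), endothelial, glial and blood factors, members near the filter, and the 4 called genes of smallest adjusted p in each related list. Other genes were added after their values were seen. Replicate numbers follow accession order. The targeted gene and some others are not reported here. Exons of Foxq1, Foxf2, Gata3, Grhl2, Elf1, Elf3, Elf2, Foxo1, Foxj2, Foxp3, Klf7, Sox4, Sox5 and Sox8 overlap a gene on the opposite strand in GENCODE M21, and use of strand in counting was not stated. Promoters and lengths are from GRCm38, not mm9, and no position was carried between them.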

Additional observations from a re-analysis of the deposited data

Results flagged for a closer look

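In 3 of 124 groups of 6 libraries a single library stood far from the others, so that the gap to its nearest neighbour passed Dixon's 95% critical share of the group's range. Chance flags about 1 group in 20 when the 6 values are independent. These libraries fell in sets, so that rate need not hold here. For Klf5, null library 4 stood at 7.87, with the next null library at 7.26. For Sox2, null library 3 stood at 7.96, with the next at 7.55. For Sox8, wild-type library 3 stood at 4.78, with the next at 4.18.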

How the results depend on the processing

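Counts of called genes fell most in the test against a 1.5-fold change and next most over set means. Over 12 libraries 8013 of all genes (4224 higher, 3789 lower), 35 members (25 higher, 10 lower) and 40 genes of the related lists were called. Over set means these counts were 2195 (1144 and 1051), 17 (12 and 5) and 13, and against a 1.5-fold change 1056 (487 and 569), 9 (5 and 4) and 6. With a random block per set 4984 genes (2682 higher, 2302 lower) and 28 members were called. Leaving out 1 library gave 7586 to 7887 genes (4022 to 4185 higher, 3518 to 3754 lower), 32 to 36 members (22 to 25 higher, 9 to 12 lower) and 39 to 43 genes of the related lists. Of 35 called members 31 stayed called with each library left out in turn. Under every alternative in which they were tested, the test against 1.5-fold included, 8 stayed called. Foxf2 was among these 8, although it passed the filter through wild-type libraries alone and was not tested with the filter at 5. Because null libraries 5 and 6 lay near mixes of other null libraries, leaving out 1 null library is a weak check. With a null set left out, the null libraries kept included such a near mix, so the adjusted p of those fits can be too small. For members called under neither setting the sign was not compared. Elf5 turned to 0.78 higher without null libraries 3, 4 and 6. Leaving out null libraries 5 and 6, chosen after seeing the data, left 31 members called, all of them among the 35. No paired analysis was possible because the labels give no shared replicate numbers. The depth is unknown, and for Foxf2 and Foxi1 the lower genotype lay close to the olfactory receptor genes, which bounds their differences.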
